A study of Mus musculus with 8 samples.

Results

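Glucose, fructose and related sugars cross cell membranes through carriers of the Slc2 (GLUT), Slc5 (SGLT) and Slc37 families, and 10 mouse genes of these families were followed here: Slc2a1, Slc2a2, Slc2a4, Slc2a5, Slc2a6, Slc2a9, Slc5a1, Slc5a2, Slc5a10 and Slc37a4. They were taken by gene symbol from the probes of the deposited intensity table. Of the 10 genes, 9 had a named probe, 13 probes in all among 23978 probes that carry a gene symbol and 25697 probes on the array, and these 9 genes stand among 16593 genes measured. Slc5a10 had no named probe and was not analysed here.

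The cells were ZsGreen-positive cells of renin lineage (CoRL) sorted by flow cytometry from the kidney cortex of Ren1cCre×Rs-ZsGreen-R mice. In these mice Cre under the renin promoter switches on ZsGreen permanently, so that both current and former renin producers are collected. The day 5 FSGS group held 4 mice that had received 2 intraperitoneal doses of sheep anti-glomerular antibody 24 h apart (12 mg per 20 g of body weight), which depletes podocytes, and that were studied 5 days after the second dose. The uninjured group held 4 age-matched mice of the same genotype without antibody, and the age of the mice was not given in the sources used here. Amplified RNA from each mouse was read on 1 array of the Illumina MouseRef-8 v2.0 BeadChip platform.

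In the kidney, filtered glucose is recovered almost wholly by the proximal tubule. SGLT2 (Slc5a2) takes it up with sodium at the apical membrane of the early proximal tubule and SGLT1 (Slc5a1) further downstream, and GLUT2 (Slc2a2) and GLUT1 (Slc2a1) pass it on across the basolateral membrane. GLUT5 (Slc2a5) carries fructose, GLUT9 (Slc2a9) carries urate, GLUT4 (Slc2a4) is the insulin-responsive carrier of muscle and fat, and GLUT6 (Slc2a6) is found on lysosomes of mouse macrophages. Slc37a4 moves glucose 6-phosphate into the endoplasmic reticulum, where glucose is released from it. Renin cells are modified smooth muscle cells of the afferent arteriole and are not known for apical sugar uptake.

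Promoter sequence was looked up to show what the carriers hold around their starts. RefSeq (GRCm38.p6) gave a window of 250 bases before to 50 bases after the start for 8 of the 10 genes, 11 windows in all. Slc2a4 and Slc5a2 were not among them. Windows are printed for Slc2a2, Slc2a5 and Slc5a1, which were lower in day 5 FSGS CoRL without overlap between the groups, and for Slc2a6, which was higher. They lie at chr3:28697653-28697952 (plus strand), chr4:150119094-150119393 (plus strand), chr5:33103969-33104268 (plus strand) and chr2:27027949-27028248 (minus strand), with motif matches in capitals.
Slc2a2: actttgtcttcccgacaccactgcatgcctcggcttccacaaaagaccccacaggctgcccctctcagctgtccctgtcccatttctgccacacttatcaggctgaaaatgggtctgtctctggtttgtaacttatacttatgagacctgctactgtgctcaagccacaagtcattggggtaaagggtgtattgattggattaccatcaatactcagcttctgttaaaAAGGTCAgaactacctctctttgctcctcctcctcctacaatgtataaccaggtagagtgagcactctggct
Slc2a5: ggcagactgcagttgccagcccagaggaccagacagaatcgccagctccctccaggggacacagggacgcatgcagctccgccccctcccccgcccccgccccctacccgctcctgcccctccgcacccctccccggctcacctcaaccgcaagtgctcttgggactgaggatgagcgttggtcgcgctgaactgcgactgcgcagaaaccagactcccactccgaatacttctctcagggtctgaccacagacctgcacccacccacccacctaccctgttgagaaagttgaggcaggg
Slc5a1: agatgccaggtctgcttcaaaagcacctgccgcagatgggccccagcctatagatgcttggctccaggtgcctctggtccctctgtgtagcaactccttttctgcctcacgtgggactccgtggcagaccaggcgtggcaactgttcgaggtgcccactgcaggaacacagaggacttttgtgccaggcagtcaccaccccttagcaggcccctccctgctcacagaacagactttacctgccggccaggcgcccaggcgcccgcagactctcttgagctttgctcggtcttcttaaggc
Slc2a6: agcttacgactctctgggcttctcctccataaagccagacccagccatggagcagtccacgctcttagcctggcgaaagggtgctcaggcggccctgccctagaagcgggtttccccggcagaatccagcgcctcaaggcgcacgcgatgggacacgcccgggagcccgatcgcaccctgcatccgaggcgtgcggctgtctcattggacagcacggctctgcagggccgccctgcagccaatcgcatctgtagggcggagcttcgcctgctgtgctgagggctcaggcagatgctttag

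Each window was searched on both strands for GTTAAT (an HNF1 half-site), AAGGTCA (the extended half-site bound by ERR and SF1) and GAGGAAGT (the PU box), which share no overlapping match in these windows. The Slc2a2 window held AAGGTCA at bases 229 to 235, on the strand of the gene, and no other motif. One of the Slc5a10 windows held AAGGTCA and GTTAAT, both on the opposite strand, and the remaining windows held none of the 3 sequences. Over 32851 mouse promoter windows of the same length the shares with a match were 7.1% for GTTAAT, 4.72% for AAGGTCA and 3.2% for GAGGAAGT, so matches in 1, 2 and 0 of the 11 windows are a description and no more.

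Levels are given as log2 of the intensity after background correction and quantile normalization, and a probe counts as detected on an array where its detection p-value was under 0.01. Probes detected numbered 11153 to 11700 on the day 5 FSGS arrays and 5793 to 12052 on the uninjured arrays. The difference is day 5 FSGS minus uninjured. A gene was called where limma's Benjamini-Hochberg p over all 16593 genes did not exceed 0.01. Among the labelled cell type's markers, Ren1, Ren2, Akr1b7 and Crip1 had no named probe. The other 17 renin cell and smooth muscle markers averaged 5.70 to 6.50 on the day 5 FSGS arrays and 5.94 to 6.33 on the uninjured arrays, 4 of them (Tagln, Cnn1, Lmod1 and Pdgfrb) were detected on no array, and limma called 0 of them (with unadjusted p under 0.05 for 1 that was higher and 2 that were lower, and 1 higher in the Bayesian test of the study's methods). Of the 17, 7 were detected on all day 5 FSGS arrays and 2 on all uninjured arrays. Of 43 proximal tubule markers measured, 29 and 33 were so detected, and 2 were detected on no array. Among these 43, Lrp2 and Slc34a1, the endocytic receptor megalin and the main phosphate carrier, were detected on all 8 arrays.

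Most of the measured sugar carriers had a lower mean in day 5 FSGS CoRL. This held for 7 of 9 genes, against 9168 of 16593 over all genes. Of the 7, 6 showed no overlap between the groups: Slc5a2, Slc5a1, Slc2a2, Slc2a5, Slc37a4 and Slc2a4, the last below background on every array. Slc2a6 alone was higher without overlap, and Slc2a1 and Slc2a9 overlapped. Of all genes, 9.60% were lower and 10.4% higher with no overlap. In bulk samples fewer cells of a type and less RNA per cell cannot be told apart. The median difference of the 9 genes was −1.01 on the log2 scale, against −0.033 over all genes. At the threshold of 0.01, limma called 0 of the 9 genes in either direction, where 0.380% of all genes were called lower and 1.88% higher. With a looser limit of 0.05 on the adjusted p, 6 were lower and 1 higher, against 5.80% and 8.55% of all genes, and these were the same 7 genes that did not overlap. The counts at an unadjusted p under 0.05 were also 6 lower and 1 higher, against 15.5% and 15.0% of all genes. The Bayesian test of the study's methods, rebuilt here, put 5 genes lower and 1 higher at 0.01, against 3.83% and 5.99% of all genes.

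**Figure D1:**
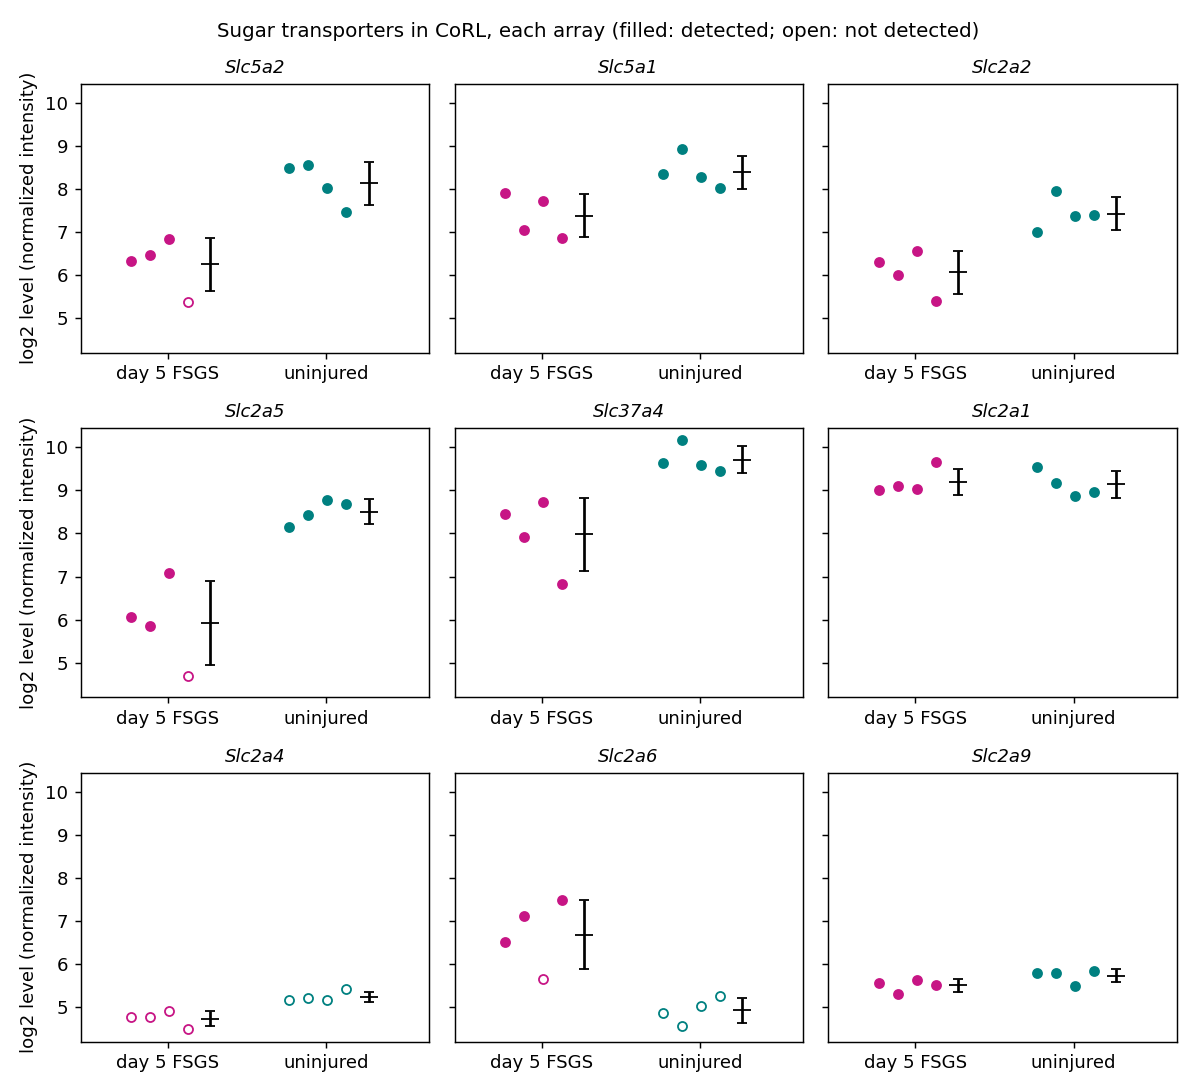
Log2 level of each of the 9 measured sugar transporters on every array, day 5 FSGS mice at the left and uninjured mice at the right of each panel, with the mean and SD (n = 4 each) beside the points. Filled points are arrays on which at least 1 probe of the gene was detected. Slc5a2, Slc5a1, Slc2a2, Slc2a5 and Slc37a4 lie lower and Slc2a6 higher in day 5 FSGS, with no overlap.

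The count at 0.01 turned on a single array. Without day 5 FSGS replicate 3, limma called 4 of the 9 genes lower (Slc2a2, Slc2a5, Slc5a2 and Slc37a4) and 1 higher (Slc2a6), against 4.34% and 7.20% of all genes. Leaving out any other single array called 0. At the looser limit of 0.05, leaving out 1 array at a time lost the pass of Slc5a1 in 7 of 8 cases, of Slc2a4 in 6, of Slc37a4 in 4, of Slc2a6 in 3 and of Slc2a2 in 2, and that of Slc2a5 and Slc5a2 in 0. That array had the highest mean level of the proximal tubule markers among the day 5 FSGS arrays, 8.66 against 6.68 to 8.27 on the other 3, and the lowest mean level of the macrophage markers, 8.59 against 9.65 to 10.06. It also had the highest endothelial markers, 7.72 against 6.44 to 6.83, and red blood cell markers, 6.75 against 5.03 to 5.53. On the uninjured arrays these averaged 6.06 to 6.78 (endothelial) and 5.86 to 7.33 (red blood cell). The part of these in the carrier levels was not tested.

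The sizes depended on the treatment of background. Slc2a5 differed by −1.31 without background correction and by −1.23 in the authors' processed table, against −2.58 at the main settings. Slc5a2 differed by −0.95 and −0.89 under these 2 alternatives, Slc2a2 by −0.65 and −0.61, Slc5a1 by −0.61 and −0.59, Slc2a6 by 0.65 and 0.58, and Slc37a4 by −1.27 and −1.26. Each kept its direction, and every one but Slc37a4 was more than 1.5 times smaller than in the values that follow.

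The apical sodium-coupled carriers come first along the path of filtered glucose. Slc5a2 (SGLT2) had log2 levels of 6.33, 6.46, 6.83 and 5.38 in day 5 FSGS CoRL and 8.49, 8.55, 8.02 and 7.47 in uninjured CoRL. Every day 5 FSGS array lay below every uninjured array, and the lowest, replicate 4, was not detected. The difference was −1.88 ± 0.35 (SE, n = 4 each, adjusted p = 0.0142 in limma), a level 3.68-fold higher in uninjured CoRL.

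Slc5a1 (SGLT1), the high-affinity carrier of the later proximal tubule, was detected on all 8 arrays. Its levels were 7.89, 7.05, 7.72 and 6.86 in day 5 FSGS CoRL and 8.34, 8.91, 8.28 and 8.01 in uninjured CoRL. The groups lay close together without overlap, and the difference was −1.01 ± 0.28 (adjusted p = 0.0473 in limma). Without day 5 FSGS replicate 3 it was −1.12 (adjusted p = 0.0319), and without any other single array the adjusted p was 0.0504 to 0.132.

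Slc2a2 (GLUT2), the low-affinity carrier of the basolateral membrane, averaged over its 3 probes, had levels of 6.29, 5.99, 6.57 and 5.40 in day 5 FSGS CoRL and 7.00, 7.94, 7.37 and 7.38 in uninjured CoRL. All 4 day 5 FSGS arrays were below the uninjured ones, and the difference was −1.36 ± 0.28 (adjusted p = 0.0192 in limma). Its probes differed in how well they were detected. ILMN_2861259, the brightest, was detected on all 8 arrays and read 7.96, 7.24, 9.00 and 6.43 in day 5 FSGS CoRL and 8.92, 9.73, 9.36 and 9.16 in uninjured CoRL. Here day 5 FSGS replicate 3 reached into the uninjured range, and the difference of −1.64 ± 0.49 had an adjusted p of 0.0630.

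ILMN_2604904 was detected on 2 day 5 FSGS and 3 uninjured arrays, at 5.70, 5.78, 5.51 and 4.99 in day 5 FSGS CoRL and 6.95, 7.49, 6.96 and 6.88 in uninjured CoRL. Its groups were widely apart, and the difference of −1.57 ± 0.21 (adjusted p = 0.00618 in limma) made it the only one of the 13 probes called at 0.01, against 2.46% of all named probes. This call was lost on leaving out any single array other than day 5 FSGS replicate 3, with adjusted p between 0.0148 and 0.0238. ILMN_2750284 was detected on 0 day 5 FSGS and 2 uninjured arrays and differed by −0.88 ± 0.28 (adjusted p = 0.0794). At the looser limit of 0.05, 7 of the 13 probes passed, 6 lower and 1 higher, against 13.1% of all named probes in either direction.

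**Figure D2:**
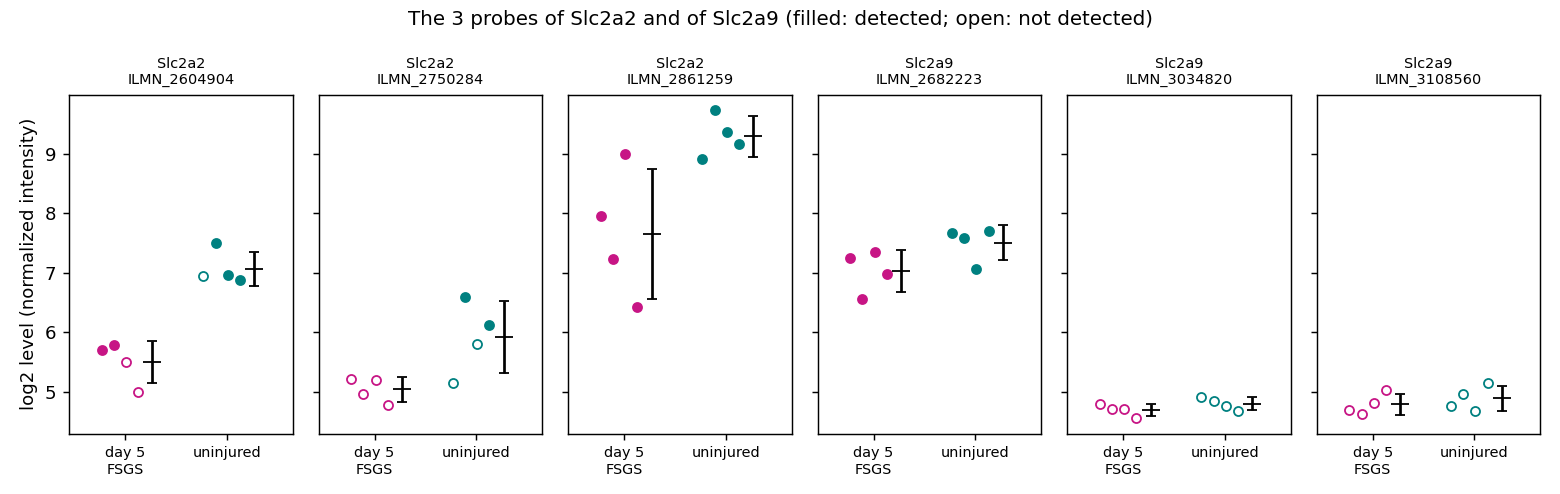
Log2 level of the 3 probes of Slc2a2 and the 3 probes of Slc2a9 on every array, day 5 FSGS at the left and uninjured at the right, with the mean and SD (n = 4 each). Filled points are detected. All 3 Slc2a2 probes have a lower mean in day 5 FSGS, and 2 of the 3 Slc2a9 probes were detected on no array.

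Slc2a5 (GLUT5), the fructose carrier, had the largest difference of the 9 genes at the main settings, while in the authors' processed table Slc37a4 (−1.26) came before it (−1.23). Its levels were 6.06, 5.84, 7.09 and 4.70 in day 5 FSGS CoRL and 8.14, 8.42, 8.78 and 8.69 in uninjured CoRL. The uninjured arrays were all detected and spanned less than 1 log2 unit, while the day 5 FSGS arrays were spread widely and replicate 4 was not detected. The difference was −2.58 ± 0.44 (adjusted p = 0.0115 in limma). It was −2.96 with an adjusted p of 0.00109 without day 5 FSGS replicate 3.

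Slc37a4, which brings glucose 6-phosphate to the enzyme that frees glucose, was detected on all 8 arrays, at 8.46, 7.92, 8.72 and 6.82 in day 5 FSGS CoRL and 9.64, 10.16, 9.59 and 9.46 in uninjured CoRL. The groups did not overlap, and replicate 4 was again the lowest of day 5 FSGS. The difference was −1.73 ± 0.39 (adjusted p = 0.0247 in limma), a 3.32-fold higher level in uninjured CoRL.

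Slc2a1 (GLUT1), the widely expressed basal glucose carrier, was detected on all arrays, at 9.00, 9.11, 9.04 and 9.65 in day 5 FSGS CoRL and 9.55, 9.16, 8.88 and 8.95 in uninjured CoRL. The groups overlapped almost fully. The difference was 0.065 ± 0.20 (adjusted p = 0.864 in limma), with a 95% interval of −0.38 to 0.51, and its sign turned without day 5 FSGS replicate 4 (−0.085) and without uninjured replicate 3 (−0.020).

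Slc2a6 (GLUT6) was the only one of the 9 carriers whose higher mean came without overlap. Slc2a3, a carrier outside these 9, was also higher without overlap. The Slc2a6 levels were 6.51, 7.11, 5.64 and 7.48 in day 5 FSGS CoRL and 4.86, 4.57, 5.02 and 5.27 in uninjured CoRL. It was detected on 3 day 5 FSGS arrays, replicate 3 being the exception, and on 0 uninjured arrays. The difference was 1.75 ± 0.37 (adjusted p = 0.0207 in limma). Since the uninjured level was below background throughout, the fold is a bound, at least 1.22-fold higher in day 5 FSGS, taken against the lowest signal among detected probes of each array or the gene's own signal, whichever was higher.

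Slc2a4 (GLUT4) was below background on all 8 arrays, so no fold is given. Its levels of 4.76, 4.78, 4.90 and 4.48 in day 5 FSGS CoRL and 5.16, 5.22, 5.18 and 5.42 in uninjured CoRL did not overlap (−0.51 ± 0.12, adjusted p = 0.0264 in limma), although none of them was detected above the negative control beads. Slc2a9 (GLUT9) averaged 5.51 ± 0.14 in day 5 FSGS CoRL and 5.73 ± 0.15 in uninjured CoRL (SD, n = 4 each), with overlap and a difference of −0.23 ± 0.12 (adjusted p = 0.234). Only its probe ILMN_2682223 was detected, on all arrays, and it differed by −0.47 ± 0.21 (adjusted p = 0.182).

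**Figure D3:**
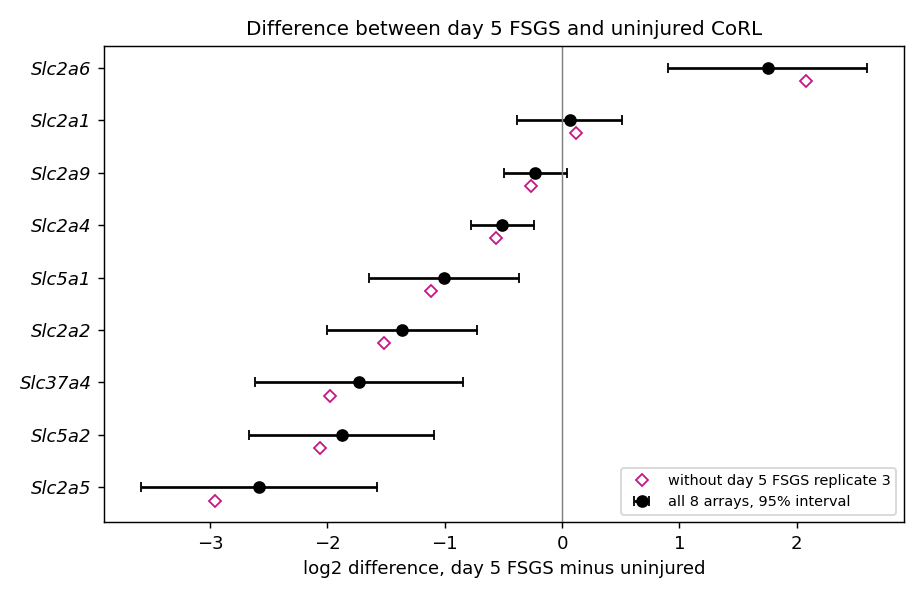
Log2 difference, day 5 FSGS minus uninjured, of the 9 sugar transporters in order of size, with the 95% interval over all 8 arrays (filled points) and the difference without day 5 FSGS replicate 3 (open diamonds). Slc2a6 lies at 1.75 and Slc2a5 at −2.58, and each of the 7 genes without overlap moves further from 0 without that array.

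Markers of other kidney cells moved with the same groups. All 43 of the 43 measured proximal tubule markers had a lower mean in day 5 FSGS CoRL, with a median difference of −1.28. Their mean level was 6.68 to 8.66 on the day 5 FSGS arrays and 9.14 to 9.51 on the uninjured arrays, and their summed signal 10571 to 52363 and 63503 to 74303. Limma called 2 of them lower, Slc22a12 (the urate exchanger URAT1) and Hpd (an enzyme of tyrosine breakdown), and 2 were detected on no array. Of 21 distal nephron markers, 20 had a lower mean and 3 were called lower (Hsd11b2, Slc4a1 and Atp6v1b1), each of which kept its call only where the array left out was day 5 FSGS replicate 3. Slc4a1 is also in the red blood cell list, where all 6 measured genes had a lower mean and Slc4a1 was the 1 called. Without day 5 FSGS replicate 3, 10 proximal tubule markers were called lower, and without any other single array 0 or 1. The part of tubule RNA in the lower carrier levels was not tested beyond the relative levels that follow.

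The level of each carrier was therefore also set against the mean of the proximal tubule markers on its own array. On that scale Slc2a5 had values of −2.22, −2.01, −1.57 and −1.98 in day 5 FSGS CoRL and −1.02, −1.09, −0.36 and −0.47 in uninjured CoRL. The groups did not overlap, and the difference was −1.21 (p = 0.0286 in a two-sided exact permutation test, the smallest p that 70 arrangements allow). It kept its sign but was −0.39 without background correction, −0.83 with an offset of 50 and −0.32 in the authors' processed table.

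Slc37a4 stood at 0.18, 0.07, 0.06 and 0.14 relative to those markers in day 5 FSGS CoRL and at 0.48, 0.65, 0.45 and 0.30 in uninjured CoRL. These groups did not overlap either, and the difference was −0.36 (exact p = 0.0286). Slc2a5 and Slc37a4 were thus the 2 carriers that lay lower without overlap on this scale, where 0.115% of all genes did so. The marker mean itself differed by −1.38, so an unchanged gene lies higher here, and that share is low by construction. The markers Slc7a13 and Slc6a19, close to Slc2a5 in pattern, differed by −2.40 and −2.28 before any subtraction, against −2.58 for Slc2a5. Whether the 2 carriers fell further than single proximal tubule genes was not tested. These p-values are not adjusted for the 18 relative comparisons made, 9 against each of 2 marker lists.

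The other tubule carriers overlapped once set against the proximal tubule markers. Slc5a2 differed by −0.50 (exact p = 0.114), and its sign turned in the authors' processed table (0.022). Slc5a1 differed by 0.37 (exact p = 0.257), and Slc2a2 by 0.013 (exact p = 1), with −1.98, −1.86, −2.09 and −1.28 in day 5 FSGS CoRL and −2.15, −1.57, −1.77 and −1.77 in uninjured CoRL. Slc2a1 was higher by 1.44 with overlap, and Slc2a9 by 1.15 without, as were 71.7% of all genes. No relative difference is given for Slc2a4 and Slc2a6, which were below background on all arrays or on all uninjured arrays.

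Macrophage and monocyte markers lay the other way. All 30 measured had a higher mean in day 5 FSGS CoRL and 13 were called higher, with a median difference of 2.33. Without day 5 FSGS replicate 3, 26 were called, and without any other single array 0. They include C1qa, a complement component, and Cx3cr1, a chemokine receptor. Their mean level was 8.59 to 10.06 on the day 5 FSGS arrays and 6.91 to 7.52 on the uninjured arrays, their summed signal 25232 to 59862 and 7135 to 12525, and 1 of them was detected on no array. Slc2a6 was lowest on replicate 3 and highest on replicate 4 of day 5 FSGS, as was the marker mean. Relative to the mean of these markers, the 7 carriers other than Slc2a4 and Slc2a6 differed by −2.17 to −4.82 without overlap, as 93.8% of all genes lay lower in that way. In the authors' processed table the same 7 differed by −1.48 to −2.79. The part of macrophage RNA in the Slc2a6 level was not tested further.

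**Figure D4:**
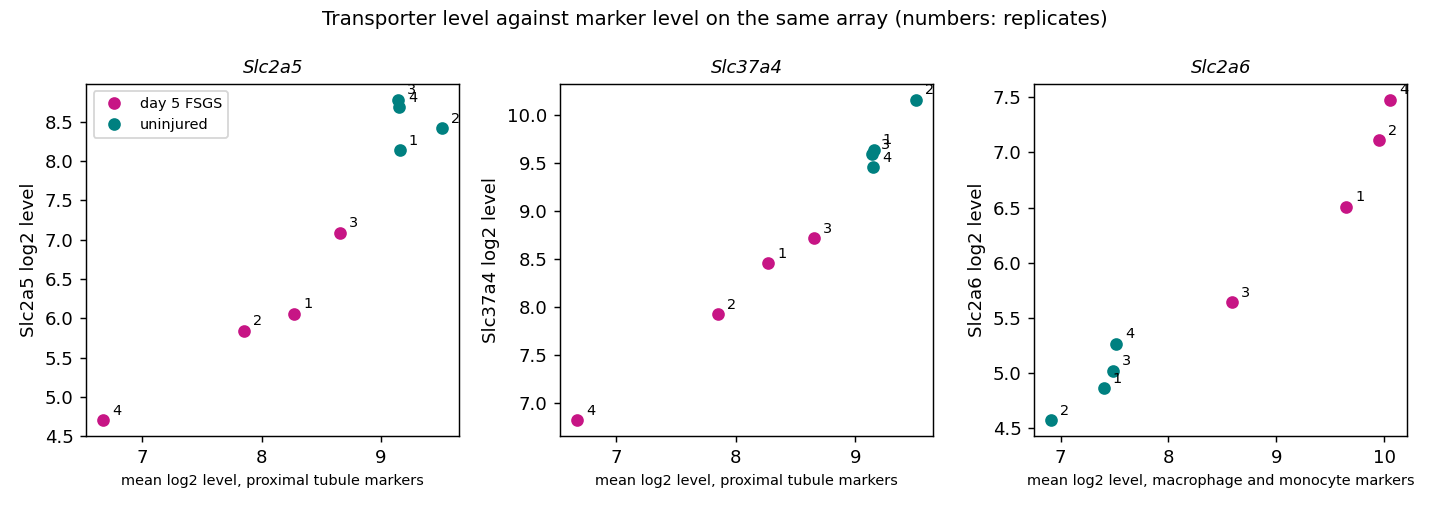
Log2 level of Slc2a5 and Slc37a4 against the mean log2 level of the proximal tubule markers, and of Slc2a6 against that of the macrophage and monocyte markers, 1 point per array with its replicate number, for day 5 FSGS and uninjured mice. Day 5 FSGS replicate 4 has the lowest proximal tubule marker level (6.68) and the lowest Slc2a5 (4.70), and replicate 3 the lowest Slc2a6 of its group (5.64).

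The remaining sugar and polyol carriers of the same families had a smaller median shift, though most of them were detected on no array. Of 13 measured, 11 had a lower and 2 a higher mean, with a median of −0.10. Limma called 0 of them, and 7 were detected on no array. At an unadjusted p under 0.05, 4 were lower and 1 higher, against 15.5% and 15.0% of all genes. The Bayesian test put 3 lower and 1 higher, against 3.83% and 5.99% of all genes. The smallest adjusted p of these carriers was that of Slc5a9 (SGLT4), a sodium-coupled carrier of mannose, fructose and glucose, at 5.24, 4.93, 5.95 and 4.73 in day 5 FSGS CoRL and 6.41, 6.93, 7.12 and 6.85 in uninjured CoRL (−1.62 ± 0.27, adjusted p = 0.0109 in limma). Of the others detected on some array, Slc5a3 differed by −1.40 ± 0.39 (adjusted p = 0.0480) with overlap. Slc5a11 differed by −1.39 ± 0.45 (adjusted p = 0.0758) and Slc2a3 by 1.25 ± 0.28 (adjusted p = 0.0251), both without overlap. Slc37a2 differed by 0.44 ± 0.24 (adjusted p = 0.260) and Slc2a8 by −0.04 ± 0.09 (adjusted p = 0.824), both with overlap. Of 4 Slc5 carriers of other solutes, all with a lower mean, limma and the Bayesian test called 0 (2 lower at an unadjusted p under 0.05). Slc5a6, the carrier of biotin and pantothenate, had the smallest adjusted p (−0.70 ± 0.26, adjusted p = 0.114).

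Of the genes that act on the carried sugars, limma called 1. Hk2, the hexokinase that phosphorylates glucose on entry, rose, with 10.07, 10.26, 8.83 and 10.09 in day 5 FSGS CoRL and 6.02, 6.62, 6.96 and 6.71 in uninjured CoRL (3.23 ± 0.34, adjusted p = 0.00365 in limma). The call was lost on leaving out any single array other than day 5 FSGS replicate 3, with adjusted p between 0.0114 and 0.0205. Hk2 was the only one called of 22 genes of glucose phosphorylation and glycolysis, 9 of which had a higher and 13 a lower mean (median −0.20). In that list an unadjusted p under 0.05 was reached by 4 that were higher and 5 that were lower, 4 were higher at an adjusted p of 0.05 or less, and the Bayesian test put 3 higher. Over all genes, an unadjusted p under 0.05 was reached by 15.0% that were higher and 15.5% that were lower. At an adjusted p of 0.05 or less 8.55% of all genes were higher, and the Bayesian test put 5.99% higher and 3.83% lower. Of 8 genes of gluconeogenesis and glucose release, 7 had a lower mean (median −1.06) and limma called 0, with 4 lower at an unadjusted p under 0.05 and 2 lower in the Bayesian test. Ppargc1a, a coactivator of that programme, had the smallest adjusted p (−1.46 ± 0.38, adjusted p = 0.0389).

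Of 6 genes of fructose and mannose use, 4 had a lower mean and limma called 0. At an unadjusted p under 0.05, 3 were lower, against 15.5% of all genes, and 1 was lower in the Bayesian test, against 3.83%. Pmm2, a phosphomannomutase, had the smallest adjusted p of the 6 (−0.36 ± 0.09, adjusted p = 0.0346 in limma). Among 21 partners, traffic proteins and regulators of the carriers, 15 had a lower mean (median −0.20) and 2 were called. An unadjusted p under 0.05 was reached by 2 that were higher and 8 that were lower, against 15.0% and 15.5% of all genes. The Bayesian test put 0 higher and 2 lower, so it did not call Stx4a. Stx4a, the syntaxin at which Slc2a4 vesicles fuse, rose (0.87 ± 0.14, adjusted p = 0.00854), and Irs1, an adaptor of the insulin receptor, fell (−1.85 ± 0.30, adjusted p = 0.00953). Both calls were likewise lost without any single array other than day 5 FSGS replicate 3, with adjusted p between 0.0209 and 0.0337 for Stx4a and between 0.0196 and 0.0344 for Irs1.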

How the data were processed

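RNA of 8 mice, 4 day 5 FSGS and 4 uninjured, was read on 8 arrays, and groups came from the sample labels. The authors deposited, for each probe and array, a non-normalized intensity and a detection p-value, and separately a processed signal that lumi had normalized (the sources used here give no version). That table was used as an alternative. Gene symbols came from the platform's probe table. 1719 probes are unnamed here.

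The deposited intensities were turned into log2 levels by neqc in limma 3.58.1 (R 4.3.3), with normexp background from the detection p-values, an offset of 16 and quantile normalization. No filter was set on dim probes, and probes of a gene were averaged. The lmFit and eBayes functions of limma compared day 5 FSGS with uninjured, with no covariate and Benjamini-Hochberg adjustment over 16593 genes, or over 23978 probes for single probes. The Bayesian test of the study's methods was rebuilt from the CyberT formula with a confidence of 10. Values relative to marker lists were planned for limma. Subtracting 1 shared value per array left 1 standard error for all genes, so an exact permutation test took its place. In limma and the Bayesian test, each p sets a difference against the spread between 4 mice a group. That spread is in part borrowed from other genes. The exact test sets the difference against 70 arrangements of the arrays. The number of arrays limits the precision, and dim genes have compressed folds.

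The transporters and gene lists were chosen with earlier results of these data known. All transporters and their probes are named. Of every other list the called genes (up to 3 by size) are named, or the gene with the smallest adjusted p where none was called, and Hk2. Lrp2, Slc34a1, C1qa, Cx3cr1 and the renin and smooth muscle markers listed as not detected were named outside this rule, after their values were seen. So were Slc2a3, Slc2a8, Slc5a3, Slc5a11 and Slc37a2. The scripts were tested on simulated data. Replicate numbers name different mice in the groups, and no pair of arrays held identical values. Figures were drawn with matplotlib 3.10.9.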

Additional observations from a re-analysis of the deposited data

Results flagged for a closer look

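Of 30 groups of 4 arrays examined for a single array far from the rest, 3 held one, and chance gives about 1 in 20 groups. Slc2a1 read 9.65 on day 5 FSGS replicate 4, against 9.00 to 9.11 on the other arrays of that group. Slc2a9 read 5.50 on uninjured replicate 3, against 5.79 to 5.84 on the others. The Slc2a2 probe ILMN_2604904 read 7.49 on uninjured replicate 2, against 6.88 to 6.96 on the others.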

How the results depend on the processing

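All 9 carriers kept the direction of their log2 difference under every alternative that gave a value, except Slc2a1, which turned to −0.085 without day 5 FSGS replicate 4 and to −0.020 without uninjured replicate 3 (0.25 with the pair of arrays named below left out). The sizes were smaller without background correction and in the authors' processed table, as low as −1.23 for Slc2a5 (−2.58 at the main settings) and 0.58 for Slc2a6 (1.75). Against 0 carriers called lower at the main settings, 1 was called without background correction (Slc2a5), 1 with median scaling (Slc2a4), 5 with scaling to the 75th percentile, 1 in the authors' processed table (Slc2a5), 3 with a filter for detection throughout a group, 3 with one for detection on at least 1 array, 2 with an intensity trend and robust variances, 3 with array weights, 5 in the Bayesian test and 6 at an adjusted p of at most 0.05. Against 0 called higher, 1 (Slc2a6) was called with the filter on at least 1 array, with array weights, in the Bayesian test and at 0.05. Leaving out 1 array gave 0 to 4 called lower and 0 to 1 called higher. Leaving out both uninjured replicate 1 and day 5 FSGS replicate 3, an alternative chosen after seeing the data, gave 2 lower and 1 higher. Over all genes, the 375 calls became 204 with an offset of 50, 757 with median scaling, 1025 with the 75th percentile, 1004 and 851 with the 2 detection filters, 660 with the trend, 1439 with array weights, 1629 in the Bayesian test, 2381 at 0.05 and 1635 without both arrays. With 1 array left out there were 0 to 1915 calls, and 0 to 36 unless that array was day 5 FSGS replicate 3. The replicate number as a block gave 0 calls, and the correlations of arrays with the same number (0.06, −0.09, −0.07 and 0.11) show no pairing. Scaling moved the median difference of all genes of −0.033 to −0.18 (median) and −0.52 (75th percentile), and the share of calls that were higher, 83.2% at the main settings, to 94.98% and 56.5%. Leaving out background correction gave 72.9%, and the processed values of the authors gave 72.7%. The cause of these shifts was not tested. Relative to the proximal tubule markers, Slc5a2 turned to 0.022 in the authors' processed table. Slc2a4, 2 probes of Slc2a9 and Slc2a6 in uninjured mice were below background, so signal over background limits what their values show. Uninjured replicate 1 had 5793 detected probes, the fewest of the arrays.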

Other observations

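The genes whose pattern over the 8 arrays was most like that of Slc2a5, the carrier with the smallest adjusted p, were sought among the 6975 genes that every array of at least 1 group detected, by the root mean square difference of log2 levels after each gene was centred on its own mean. The nearest were Slc7a13 at 0.245, Slc6a19 at 0.272 and Akr1c14 at 0.303. Slc7a13 carries acidic amino acids and cystine in the late proximal tubule, Slc6a19 carries neutral amino acids at its apical membrane, and both are in the proximal tubule marker list used here. Akr1c14 is a 3-alpha-hydroxysteroid dehydrogenase. Slc7a13 read 6.87, 6.40, 8.14 and 4.97 in day 5 FSGS CoRL and 8.46, 9.12, 9.23 and 9.18 in uninjured CoRL. Their differences were −2.40 for Slc7a13, −2.28 for Slc6a19 and −2.53 for Akr1c14, and none was called at 0.01 in limma (adjusted p = 0.0311, 0.0262 and 0.0254).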
